A study of Ficus obtusifolia with 4 samples.

Results

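The transcripts described here are the glutathione S-transferases (GSTs), glutaredoxins and thioredoxins of fig flowers. They were chosen by words in the deposited protein descriptions (glutathione s-transferase, glutathione transferase, glutaredoxin or thioredoxin, without peroxidase) and by a minimum of 10 mapped reads in each receptive library. Of 54550 assembled transcripts, 114 carried such a description and 78 also met the minimum, among them 19 GSTs, 20 glutaredoxins and 39 thioredoxins or thioredoxin-like proteins. Flowers of a wild, monoecious Ficus obtusifolia tree in Panama were sorted by position alone into gall flowers, nearest the lumen of the syconium, and seed flowers, nearest its wall. Receptive flowers were taken before any wasp had entered, and pollinated flowers 24 hours after 1 foundress of Pegoscapus hoffmeyerii had been let into each bagged syconium. Receptive gall, receptive seed, pollinated gall and pollinated seed flowers each gave 1 library, made from many flowers pooled over several syconia of the same tree. There are therefore no replicates, the variation between samples of a flower type is unknown, and every difference below is a difference between libraries without a replicate check.

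GSTs join the tripeptide glutathione to reactive or foreign compounds, and the plant-specific tau and phi classes are known for detoxification and, in Arabidopsis, petunia and maize, for delivery of anthocyanins to the vacuole. Glutaredoxins and thioredoxins are small proteins that reduce disulfide bonds in other proteins. Glutaredoxins draw their electrons from glutathione, whereas thioredoxins are recharged by thioredoxin reductases, from NADPH or, in plastids, from ferredoxin.

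Levels are given as RPKM, mapped reads scaled for the length of the transcript and for all mapped reads of the library. Where 4 levels follow each other, they are for gall and seed flowers when receptive and then for gall and seed flowers once pollinated. Mapped reads numbered 51063005 in gall and 11584069 in seed flowers when receptive, and 58969477 and 22141107 once pollinated. A ratio of RPKM is followed by its exact conditional binomial 95% interval, which covers counting error only, since reads that carry no molecular identifier cannot be counted as separate molecules. A description comes from a protein match in another species, so it names the family more surely than the gene. Over the 21461 transcripts of any kind that met the same read minimum, the median log2 ratio was -0.23 from receptive seed to receptive gall and -0.16 from pollinated seed to pollinated gall flowers. Scaling the libraries by TMM, a trimmed mean of ratios over all transcripts, moved log2 ratios by 0.23 and 0.19 in these comparisons, and by at most 0.02 in either direction between stages. All 9 carpel and ovule genes (AGAMOUS and related descriptions) had reads in every library, with summed RPKM between 209 and 406. Both flower types bear ovules, so this does not check the sorting into gall and seed flowers. Transcripts with the word pollen in their description summed to an RPKM of 1100, 1131, 1166 and 1087. Transcripts described with a wasp or other hymenopteran genus had 45219 reads in pollinated gall flowers against 24, 2 and 23 in receptive gall, receptive seed and pollinated seed flowers.

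The 78 transcripts had mean RPKM between 0.942 and 411 and a median length of 1194 bp, and 42 of them exceeded an RPKM of 20 in at least 1 library. In only 3 did uniquely mapped reads make up less than 98% of the mapped reads in some library, so few reads were divided among near-identical transcripts. At the edge of the read minimum, the tau-class GSTs Locus 3996 and Locus 12074 were kept with 14 and 16 reads in their lower receptive library, and the GST Locus 36120 and the thioredoxin-like Locus 17513 with 16. Another transcript described as GST tau 9, Locus 878, was left out with 8 reads in receptive seed flowers, as were a fragment of a lambda GST, Locus 52100, with 6 and a thioredoxin family transcript, Locus 43291, with 5. Locus 878 stood at an RPKM of 1.95 in gall flowers and 0.630 in seed flowers when receptive, and 49.99 and 7.29 once pollinated. The minimum thus removed a GST that was abundant after pollination, and counts over the 78 do not cover transcripts that were nearly silent before it. Of the 36 transcripts left out, 24 had no read in either receptive library.

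Summed over each family, GSTs were most abundant in pollinated gall flowers, and glutaredoxins and thioredoxins in receptive seed flowers. The summed RPKM of the GSTs was 1181 in gall and 1267 in seed flowers when receptive, and 1732 and 1282 once pollinated. The pollinated gall library stood above the other 3, which lay close together. Glutaredoxins gave 911 in gall and 1367 in seed flowers when receptive, and 750 and 890 once pollinated. Thioredoxins gave 1328, 1792, 1353 and 1419 in the same order, with receptive seed flowers above the rest. All transcripts with the read minimum summed to 969368, 1179020, 920946 and 952967 in this order. Receptive seed flowers were thus highest for transcripts of any kind as well, and the family totals are not corrected for that. The GST total leaned on Locus 18346 and Locus 763, which held between 55.5% and 62.2% of it. Without both, the other GSTs still summed to 728 in pollinated gall flowers against 446 in receptive gall, 563 in receptive seed and 570 in pollinated seed flowers. With TMM scaling the summed read rate of gall over seed flowers turned from 0.945 to 1.11 for receptive GSTs and from 0.924 to 1.05 for pollinated thioredoxins, and no other family sum changed side.

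**Figure D1:**
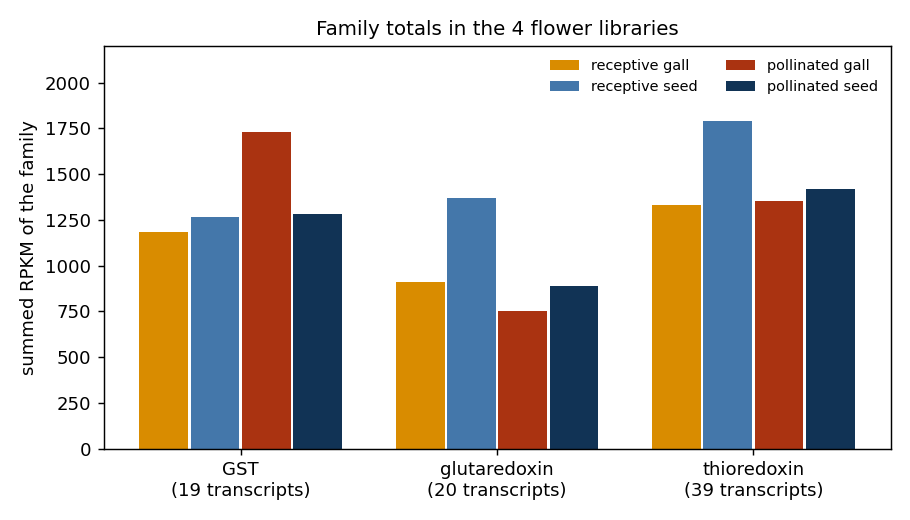
Bars show the summed RPKM of the 19 GSTs, 20 glutaredoxins and 39 thioredoxins in each of the 4 libraries, with 1 library per flower type and hence no error bar. The GST bar is highest in pollinated gall flowers (1732), and the glutaredoxin and thioredoxin bars are highest in receptive seed flowers (1367 and 1792). The summed RPKM of all transcripts with the read minimum is also highest in receptive seed flowers.

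The receptive libraries were compared to ask how the flowers differ before a wasp makes its choice. Of the 78 transcripts, 5 were at least 2-fold higher and 14 at least 2-fold lower in gall flowers. Over all transcripts with the same read minimum these shares were 15.0% and 23.8%, both larger than the shares among the 78. With TMM scaling the counts became 9 higher and 7 lower. These are not to be set beside the shares above, which are without TMM scaling. The median log2 ratio was -0.44 for the 78 and -0.23 for all transcripts, a gap that closed to -0.22 against -0.21 once the trend over transcript length was removed. By family the median was -0.21 for GSTs, -0.52 for glutaredoxins and -0.54 for thioredoxins. As in the study, differences were also tested by Kal's Z-test, here on each RPKM as a share of the summed RPKM of the library, with Benjamini-Hochberg adjustment over all transcripts. A transcript was called when its adjusted p was below 0.05 and its RPKM passed 20 in any of the 4 libraries. The test called 4 of the 78 higher and 6 lower in receptive gall flowers, against 11.1% and 8.53% of all transcripts with the read minimum.

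In pollinated flowers 12 of 19 GSTs had a higher level in gall than in seed flowers, against 8463 of 21461 transcripts with the read minimum. Of the 78, 7 were at least 2-fold higher in gall flowers (background 8.32%) and 4 at least 2-fold lower (background 8.79%). TMM scaling made this 14 higher and 2 lower. Kal's test called 6 higher and 3 lower (background 4.08% and 3.25%), or 10 and 1 with TMM scaling. All background shares here are without TMM scaling, so they are no measure for the counts with it. The median log2 ratio was -0.08 for the 78 and -0.16 for all transcripts. It was 0.39 for GSTs, -0.02 for glutaredoxins and -0.15 for thioredoxins. Across the 78, Pearson's r between the log2 gall to seed ratios of the receptive and of the pollinated pair, which share no library, was 0.33, and 50 kept their side of 1. For all transcripts with the read minimum r was 0.42 and 65.8% kept their side. These correlations are over transcripts of the same libraries, which are not independent replicates.

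**Figure D2:**
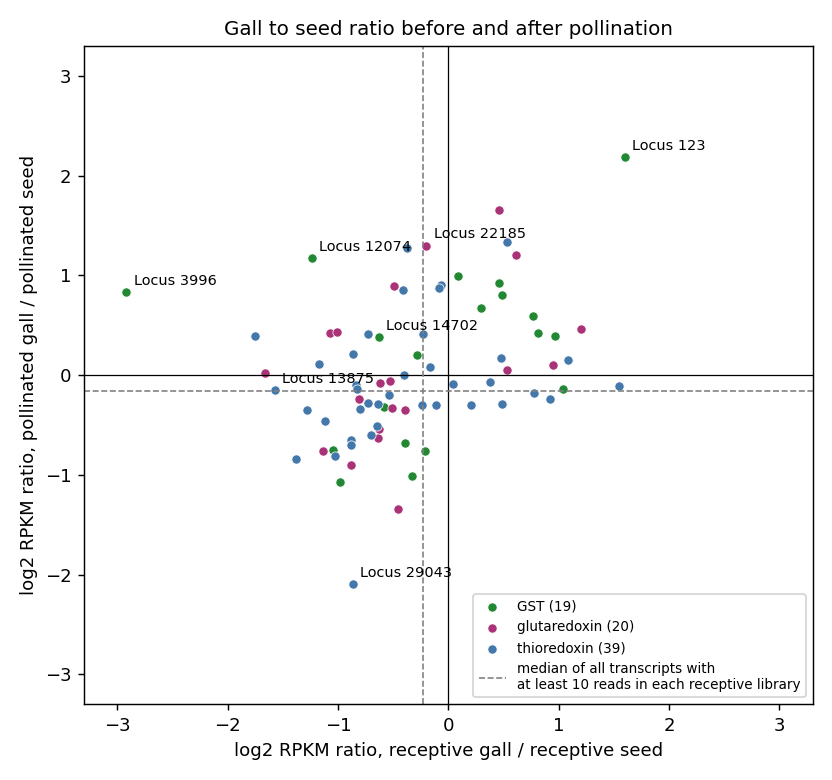
Each point is 1 of the 78 transcripts, with its log2 RPKM ratio of gall to seed flowers in receptive (horizontal) and pollinated (vertical) flowers, and dashed lines mark the medians of all transcripts with at least 10 reads in each receptive library (-0.23 and -0.16). Locus 123 lies far into the upper right, higher in gall flowers at both stages, whereas the tau GSTs Locus 3996 and Locus 12074 lie at the upper left, lower in gall flowers before pollination and higher after it.

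From receptive to pollinated gall flowers, 6 of the 78 were at least 2-fold higher (background 6.83%) and 4 at least 2-fold lower (background 6.71%). Among the 6 were 4 GSTs. Kal's test called 6 higher and 3 lower (background 3.67% and 3.21%). The median log2 ratio was 0.10 for the 78 and 0.02 for all transcripts, and by family it was 0.26 for GSTs, -0.02 for glutaredoxins and 0.12 for thioredoxins. The 2 most abundant GSTs, Locus 18346 and Locus 763, both lay above the GST median, at 0.52 and 0.37. Without them the median was 0.02, as it would be without any other 2 GSTs above it.

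From receptive to pollinated seed flowers, 2 of the 78 were at least 2-fold higher (background 11.5%) and 8 at least 2-fold lower (background 13.8%). The median log2 ratio was -0.20 for the 78 against -0.02 for all transcripts, and it was -0.04 for GSTs, -0.58 for glutaredoxins and -0.28 for thioredoxins. In seed flowers 5 of 20 glutaredoxins had a ratio above 1, and in gall flowers 10 of 20 did, a difference that was not tested. Of the 21461 transcripts with the read minimum, 10526 had a ratio above 1 in seed and 11070 in gall flowers. The receptive seed library also enters the receptive comparison, so the lower glutaredoxin ratios there rest on the same library. Kal's test called 4 higher and 2 lower (background 8.56% and 4.74%). These calls depended on the scaling, because the summed RPKM of the receptive seed library was the largest of the 4. With TMM scaling 1 was called higher and 7 lower, while the background shares given are without it.

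**Figure D3:**
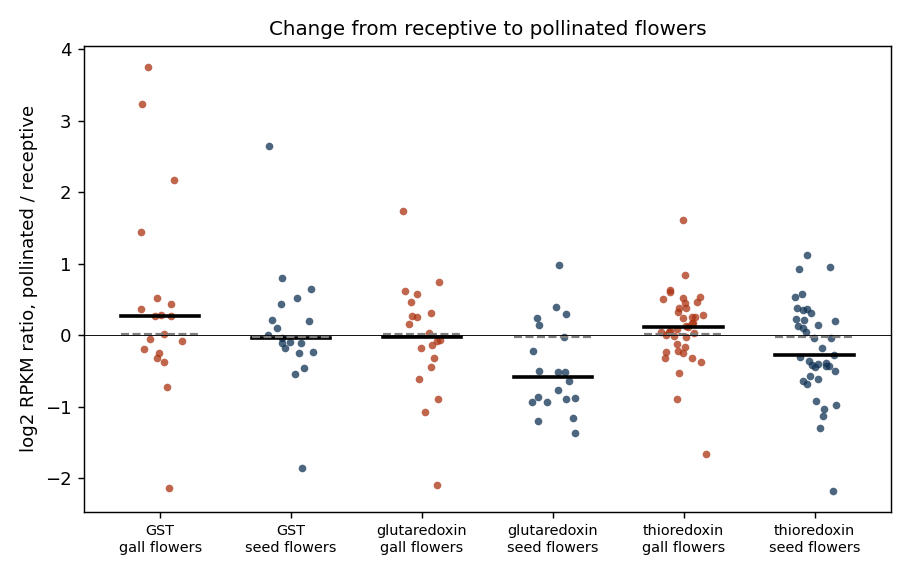
Points are the log2 RPKM ratios of pollinated to receptive flowers for each transcript, by family and flower type, spread sideways only for legibility. Black bars are family medians and dashed grey bars the medians of all transcripts with the read minimum (0.02 in gall and -0.02 in seed flowers), and the glutaredoxin median in seed flowers (-0.58) lies farthest below its dashed bar.

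The stage change in gall flowers was at least 2 times that in seed flowers for 16 of the 78 (18.9% of all transcripts) and at most 0.5 times for 4 (14.3% of all transcripts). No test of this difference is possible with 1 library per flower type. A model with additive terms for stage and for flower type over the 4 libraries (edgeR quasi-likelihood F-test, 1 residual degree of freedom) asked instead for differences alike in both flower types or at both stages. At an adjusted p under 0.05 it called 0 of the 78 between gall and seed flowers. It also called 0 of all 21378 tested transcripts with the read minimum there. Between stages it called 0 of the 78, against 0.108% of all transcripts with the read minimum higher and 0.0561% lower. An unadjusted p under 0.05 was reached by 3 and 5 of the 78, against 12.8% and 5.46% of all transcripts with the read minimum. DESeq2 called 1 of 71 with an adjusted p between gall and seed flowers (4.27% of all such transcripts with the read minimum) and 2 of 78 between stages (1.40%). Without a filter on low counts edgeR called 1 (background 6.93%) and 2 (background 2.65%).

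Among the GSTs, Locus 123 (897 bp, a probable GST) had the widest range. Its RPKM was 13.4 in gall flowers and 4.43 in seed flowers when receptive, and 127 and 27.8 once pollinated. It was higher in pollinated than in receptive flowers of both types, and higher in gall than in seed flowers at both stages. The ratio of pollinated to receptive was 9.43 (8.68 to 10.3) in gall and 6.28 (4.64 to 8.68) in seed flowers. The ratio of gall to seed was 3.03 (2.25 to 4.19) in receptive and 4.55 (4.17 to 4.98) in pollinated flowers. In the additive model its log2 change between stages was 2.94, with an adjusted p of 0.0517 in edgeR, 0.05 with RLE size factors, 1.7e-07 without the filter on low counts, 0.0448 on uniquely mapped reads and 4.0e-07 in DESeq2. Between gall and seed flowers the adjusted p was 0.12 in edgeR, between 3.4e-04 and 0.119 under the other settings, and 9.7e-04 in DESeq2. Locus 123 had 615 and 46 reads in the receptive gall and seed libraries, where wasp-described transcripts together had 24 and 2. It had 552 reads in pollinated seed and 6694 in pollinated gall flowers, where wasp-described transcripts had 23 and 45219. The read minimum required reads in both receptive libraries, so reads there were set by the choice of transcripts. The organism behind Locus 123 was not tested.

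GSTs with a class in their description were few. A lambda GST, Locus 14702, of a class that in other plants acts on thiols without conjugating glutathione, stood at an RPKM of 84.4 in gall flowers and 130 in seed flowers when receptive, and 230 and 176 once pollinated. Its order between gall and seed flowers was opposite at the 2 stages, with a ratio of 0.648 (0.611 to 0.688) before and 1.30 (1.26 to 1.35) after pollination. From receptive to pollinated it was 2.72-fold higher (2.63 to 2.82) in gall and 1.35-fold higher (1.28 to 1.44) in seed flowers. The tau GSTs Locus 3996 and Locus 12074 were scarce, whereas Locus 878, left out by the read minimum, reached 49.99 in pollinated gall flowers. Locus 3996 stood at an RPKM of 0.290 in gall flowers and 2.19 in seed flowers when receptive, and 3.91 and 2.20 once pollinated, and Locus 12074 had 0.608, 1.43, 2.74 and 1.21 in the same order. Each was lowest in receptive gall and highest in pollinated gall flowers, with a stage ratio in gall flowers of 13.5 (7.87 to 25.1) and 4.50 (3.03 to 6.90), while in seed flowers the interval of the stage ratio included 1 (0.600 to 1.72 and 0.439 to 1.70). The zeta GST Locus 14907, whose class takes part in tyrosine breakdown, had 18.6, 9.06, 14.3 and 15.8, with receptive seed flowers lowest.

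The 15 GSTs without a named class included the most abundant ones. Locus 18346 stood at an RPKM of 380 in gall flowers and 272 in seed flowers when receptive, and 546 and 312 once pollinated, and was called by Kal's test in all 4 comparisons. It was higher in gall flowers at both stages, by 1.40-fold (1.34 to 1.45) and 1.75-fold (1.70 to 1.79). Locus 763 had 356, 432, 458 and 399, a much flatter profile, in which only the stage ratio in gall flowers, 1.29 (1.27 to 1.31), was called. Locus 3504 had 61.6, 58.0, 83.5 and 42.1, and its gall to seed ratio was 1.98 (1.89 to 2.09) after pollination and 1.06 (1.00 to 1.13) before. Locus 1770 went the other way, with 43.9, 86.4, 38.3 and 80.6, so that seed flowers had about double the level of gall flowers at either stage (gall to seed 0.508, 0.480 to 0.538, and 0.475, 0.454 to 0.498). Locus 38922, named after its values were seen, was the GST with the lowest stage ratios, 0.228 (0.147 to 0.343) in gall and 0.277 (0.147 to 0.504) in seed flowers, on 30 and 18 reads after pollination. Of the 19 GSTs, 10 had their highest level in pollinated gall flowers, as did 16.4% of all transcripts with the read minimum.

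**Figure D4:**
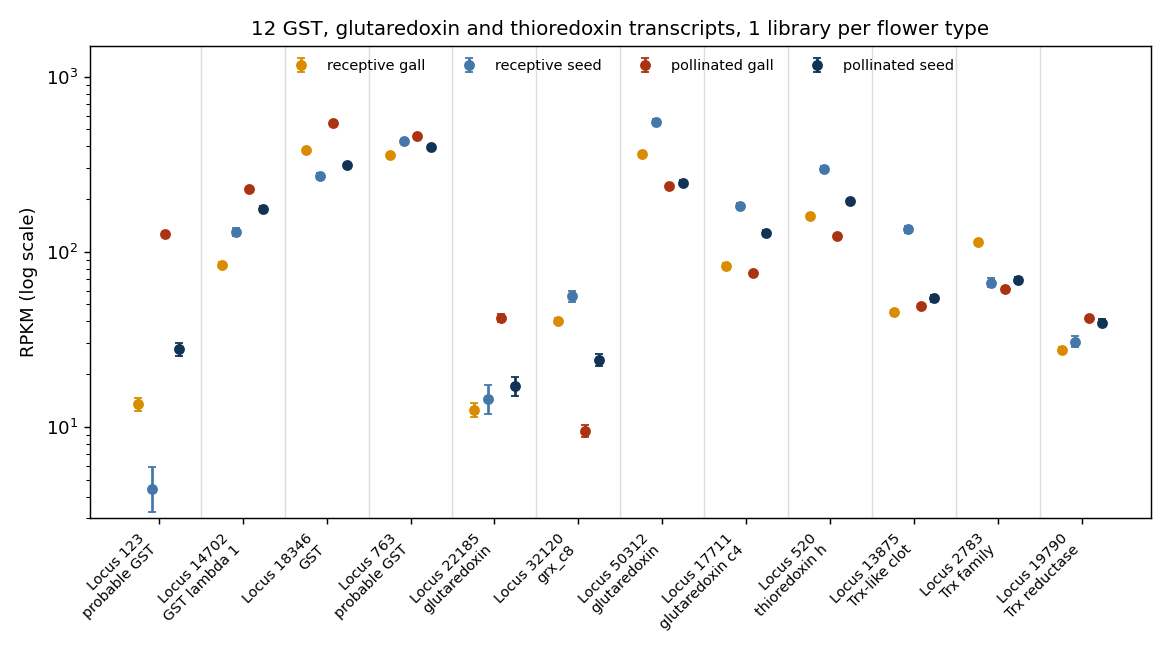
Points are the RPKM of 12 transcripts in each library on a log axis, and bars are exact Poisson 95% intervals of the read counts, with no replicate error. Locus 123 spans from 4.43 to 127, while Locus 32120 (grx_c8) has its lowest value, 9.47, in pollinated gall flowers, and Locus 13875 has its highest, 134, in receptive seed flowers.

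Among glutaredoxins, those with a C number had lower levels in gall than in seed flowers at both stages. The 3 were summed as a read rate, and their ratio of gall to seed was 0.559 (0.538 to 0.580) in receptive and 0.585 (0.566 to 0.606) in pollinated flowers, or 0.654 and 0.666 after TMM scaling. Glutaredoxin c4, Locus 17711, stood at an RPKM of 83.5 in gall flowers and 183 in seed flowers when receptive, and 75.6 and 128 once pollinated, and was called lower in gall flowers at both stages. Glutaredoxin c3, Locus 666, had 75.1, 117, 83.4 and 129, with nearly the same gall to seed ratio at both stages, 0.644 (0.596 to 0.696) and 0.648 (0.612 to 0.686). With the trend over transcript length removed, the receptive log2 ratio of Locus 666 turned from -0.63 to 0.04.

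Locus 32120, described as grx_c8 of glutaredoxin subgroup III, had a different profile. In Arabidopsis this subgroup, the CC-type, includes ROXY proteins that act with TGA factors in petal and anther development. Its RPKM was 40.5 in gall flowers and 55.6 in seed flowers when receptive, and 9.47 and 24.1 once pollinated. Both pollinated libraries were below both receptive ones. The stage ratio was 0.234 (0.215 to 0.254) in gall and 0.433 (0.391 to 0.479) in seed flowers, and the additive model gave a log2 change of -1.67 with an adjusted p of 0.27 in edgeR, 0.0413 in DESeq2 and 0.00706 in edgeR without the filter. Locus 50312 (481 bp), the most abundant glutaredoxin, had 362, 554, 236 and 249, again with both receptive libraries above both pollinated ones, and Kal's test called it lower after pollination in gall (0.653, 0.633 to 0.674) and in seed flowers (0.449, 0.426 to 0.473).

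Locus 22185, a glutaredoxin without a named class, was instead highest in pollinated gall flowers. It had 12.5 in gall and 14.4 in seed flowers when receptive, and 41.9 and 17.0 once pollinated. The other 3 libraries lay close together, and only in gall flowers did the interval of the stage ratio exclude 1, at 3.34 (3.00 to 3.73) against 1.18 (0.943 to 1.49) in seed flowers. Locus 20922, a glutaredoxin family protein, had 95.3, 136, 76.4 and 95.9, a narrow range with receptive seed flowers highest. The S-numbered glutaredoxins, a group that in other organisms handles iron-sulfur clusters, did not share a direction between gall and seed flowers. Locus 2474 (s17) had 71.6, 94.1, 72.9 and 93.0, so that each flower type had nearly the same level at both stages, with stage ratios of 1.02 (0.985 to 1.05) in gall and 0.987 (0.935 to 1.04) in seed flowers. Locus 43669 (s16) had 53.5, 82.6, 39.4 and 57.5, with gall to seed ratios of 0.648 (0.607 to 0.693) and 0.686 (0.645 to 0.730). Locus 7722 (s14), named after its values were seen, had 25.6, 17.7, 24.2 and 23.4, and its gall to seed ratio was 1.45 (1.29 to 1.63) in receptive and 1.04 (0.955 to 1.12) in pollinated flowers.

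The h-type thioredoxins, mostly cytosolic proteins that in Brassica bind the receptor kinase of pollen rejection, split by description. Locus 520 stood at an RPKM of 161 in gall flowers and 297 in seed flowers when receptive, and 123 and 194 once pollinated, and was called lower in gall flowers at both stages, with ratios of 0.541 (0.518 to 0.566) and 0.636 (0.610 to 0.663). Locus 95 had 94.4, 156, 94.8 and 115, lower in gall flowers by 0.605 (0.583 to 0.627) and 0.822 (0.796 to 0.849). The transcripts described as thioredoxin h2, named after their values were seen, stood higher in pollinated gall than in pollinated seed flowers. Locus 465 had 71.5, 74.7, 71.0 and 37.9, and only pollinated seed flowers were low. Locus 21998 had 4.29, 5.57, 13.2 and 5.44, and only pollinated gall flowers were high, so that a like gall to seed ratio, 1.87 (1.70 to 2.07) and 2.42 (2.10 to 2.80), came from opposite libraries.

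Thioredoxins of types m, f and x regulate enzymes in plastids. The m-type Locus 21126 had 8.76 in gall and 21.3 in seed flowers when receptive, and 12.7 and 16.2 once pollinated, and Locus 29043 had 1.47, 2.68, 0.466 and 2.00. Both were lower in gall than in seed flowers at each stage. Type f (Locus 29396) had 16.2, 23.6, 16.9 and 19.5, and type x (Locus 32288) had 8.74, 9.43, 9.84 and 12.2. Ferredoxin-thioredoxin reductase, Locus 1366, which passes electrons to these thioredoxins, had 13.0, 23.9, 14.2 and 23.1, with a gall to seed ratio of 0.544 (0.483 to 0.613) before and 0.616 (0.561 to 0.676) after pollination. A GO term for plastid, chloroplast or thylakoid was listed for 21 of the 78 transcripts (26.9%), 17 of them thioredoxins, against 12.4% of all transcripts with the read minimum. Chlorophyll-binding, photosystem and Rubisco small subunit transcripts, as a measure of green tissue, summed to an RPKM of 420, 320, 224 and 306 in receptive gall, receptive seed, pollinated gall and pollinated seed flowers, of which 22 of 26 met the read minimum. Their part in the plastid thioredoxin levels was not tested.

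Outside the plastid, thioredoxin o1 (Locus 22017), a mitochondrial type, had 19.4 in gall and 9.17 in seed flowers when receptive, and 19.8 and 17.8 once pollinated, with only receptive seed flowers low. Thioredoxin reductase (Locus 19790) had 27.4, 30.7, 41.6 and 39.2. Both pollinated libraries were above both receptive ones, with stage ratios of 1.52 (1.45 to 1.59) in gall and 1.28 (1.17 to 1.40) in seed flowers, but neither was called.

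The 28 remaining thioredoxin-like and thioredoxin-domain transcripts included several with their highest level in receptive seed flowers. Of all 39 thioredoxins 46.2% were highest there, against 39.8% of all transcripts with the read minimum. Locus 13875, similar to the Clot protein of Drosophila, had 45.1 in gall and 134 in seed flowers when receptive, and 49.0 and 54.4 once pollinated. Receptive seed flowers stood well above the other 3, with a gall to seed ratio of 0.336 (0.319 to 0.354) and a stage ratio in seed flowers of 0.406 (0.381 to 0.432). Locus 21300, a homolog of thioredoxin domain-containing protein 9, had 40.8, 88.3, 48.6 and 66.9. Locus 1925, thioredoxin-like 4A, whose relatives are part of the spliceosome, had 115, 190, 163 and 122, with pollinated gall flowers next below receptive seed flowers. Locus 50807, a 320 bp fragment similar to TRP26, had 44.5, 23.5, 37.7 and 44.6, so that receptive seed flowers were instead lowest. Locus 2783, a thioredoxin family protein, was highest in receptive gall flowers, with 114, 66.7, 61.0 and 68.9, and was called both against receptive seed flowers (1.71, 1.61 to 1.82) and against pollinated gall flowers (0.536, 0.518 to 0.554). Locus 23303, a DsbA-like protein with the fold of a bacterial disulfide-forming enzyme, had 149, 115, 120 and 126, and was called only in the receptive comparison (1.30, 1.22 to 1.39).

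Genes that make, recycle or use glutathione and thioredoxin were counted alongside, 42 transcripts in all with the read minimum. Gamma-glutamylcysteine synthetase (Locus 340), the enzyme of the initial step of glutathione synthesis, had 45.9, 40.3, 54.6 and 59.4. Kal's test called it higher after pollination in seed flowers, at 1.47 (1.39 to 1.56), a comparison in which higher calls depended on the scaling. Glutathione synthetase (Locus 6232), the enzyme of the next step, had 14.7, 20.4, 16.3 and 23.3, with gall to seed ratios of 0.723 (0.657 to 0.796) and 0.700 (0.653 to 0.751). Glutathione reductase, which regenerates glutathione, was lowest in receptive seed flowers, with 105, 56.9, 104 and 80.6 for Locus 25872 and 7.04, 2.22, 8.89 and 8.31 for Locus 7569. Of the 9 recycling transcripts Kal's test called 2 higher and 0 lower in receptive gall than in receptive seed flowers (background 11.1% and 8.53%). The ratio was below 1 for 4 of the 9, among them a dehydroascorbate reductase, Locus 22321, at 0.551 (0.492 to 0.618), and the most abundant, a monodehydroascorbate reductase, Locus 7484, at 0.824 (0.801 to 0.848). Peroxiredoxins and methionine sulfoxide reductases, which take electrons from thioredoxins, had a summed gall to seed read rate of 0.605 (0.588 to 0.623) in receptive and 0.775 (0.756 to 0.793) in pollinated flowers, and 1 of 8 was called lower in receptive gall flowers. Among the 15 ABC transporters of family C and MATE transporters, proteins of the kind that move conjugates into the vacuole, 6 were at least 2-fold higher and 0 at least 2-fold lower in receptive gall than in receptive seed flowers, where the background was 15.0% and 23.8%. Their median log2 ratio was 0.86 against -0.23 for all transcripts. The 6 were between 1938 and 7067 bp long, against a median of 1549 bp for all transcripts with the read minimum. The part of transcript length in these ratios was not tested. Of the 15, 4 exceeded an RPKM of 20 in some library, and Kal's test called 1 of them higher in receptive gall flowers. Between pollinated gall and pollinated seed flowers 2 of the 15 were at least 2-fold higher and 1 lower (background 8.32% and 8.79%), with 0 called. From receptive to pollinated seed flowers 7 were higher and 0 lower (background 11.5% and 13.8%). In gall flowers 2 were higher and 1 lower (background 6.83% and 6.71%). The receptive seed library enters both comparisons with the larger counts.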

How the data were processed

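The authors trimmed paired 100 bp reads (FastQC 0.10.0 and Trimmomatic 0.22, per the submitters' processing notes), assembled all libraries together with Oases and mapped each library to the longest sequence per locus with CLC Genomics Workbench. The deposited table gives, per transcript and library, read counts (total and unique) and the RPKM that the authors derived from the total. RPKM recomputed from counts and lengths differed by at most 5.0e-04. A further 12 columns that repeat others were not used. No sequences were analysed here.

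Kal's Z-test, ratios and intervals were computed in Python 3.11.15 (scipy 1.17.1). The additive model used edgeR 4.0.16 (TMM, filterByExpr) on counts, with DESeq2 1.42.0 as an alternative. Kal's test and the edgeR model were tested on simulated data, and DESeq2 was not. Other alternatives were uniquely mapped reads, a Z-test on counts, no RPKM minimum, TMM or median-ratio scaling, removal of the length trend, 1 added to each RPKM, members of at least 300 bp, at least 50 reads, and an exact test in edgeR at a set coefficient of variation of 0.4.

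Members and lists were chosen with earlier results of these data known. Transcripts named were the 2 most abundant of each class, the 3 called transcripts with the most extreme ratios in each direction and comparison (at least 50 reads in each library), and those at the edge of the read minimum. Locus 465, Locus 7722, Locus 21998, Locus 38922 and Locus 8166, and the pathway transcripts named, were chosen after their values were seen. Classes were read from the descriptions.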

Additional observations from a re-analysis of the deposited data

Results flagged for a closer look

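The tau GSTs Locus 3996 and Locus 12074 went opposite ways between gall and seed flowers at the 2 stages, each by at least 1.5-fold. For Locus 3996 the gall to seed ratio was 0.132 in receptive and 1.78 in pollinated flowers, and for Locus 12074 it was 0.425 and 2.25. Locus 878, a tau GST below the read minimum, did not turn, with 3.09 (1.51 to 7.34) and 6.86 (5.90 to 8.03). Another tau fragment below it, Locus 49027, had at most 7 reads in any library. With 1 library per flower type the difference between stages was not tested. The counts behind the lowest values of Locus 3996 and Locus 12074 are 14 and 30 reads in receptive gall flowers.

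A signal outside the comparisons came from 20 transcripts with GST, glutaredoxin or thioredoxin descriptions that had reads only in pollinated gall flowers, 3543 in all, and none in the other 3 libraries. They comprised 9 GSTs, 2 glutaredoxins and 9 thioredoxins, with between 11 and 421 reads and RPKM up to 7.77. Pollinated gall flowers were also the library in which transcripts named for hymenopteran genera had 45219 reads. The organism behind the 20 transcripts was not tested here.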

How the results depend on the processing

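No paired analysis was possible because each flower type has 1 library, and for the same reason no library could be left out. Kal's test run on read counts called 38 of the 78 transcripts between the receptive libraries, 36 between the pollinated ones, 34 between the stages of gall flowers and 35 between those of seed flowers, against 10, 9, 9 and 6 on RPKM. On read counts 42.9%, 39.7%, 40.5% and 39.7% of all transcripts with the read minimum were called. At a set coefficient of variation of 0.4, the exact test of edgeR called 0, 1, 2 and 0 (background 3.08%, 1.49%, 1.70% and 1.23%). With at least 50 reads in each receptive library the count of 2-fold differences fell to 6 of 65 in pollinated gall against pollinated seed flowers, from 11 of 78, and to 4 of 65, from 10 of 78, in pollinated against receptive gall flowers. No share over all transcripts at this stricter minimum is given, so the fall cannot be read as particular to these transcripts. The median log2 gall to seed ratio moved in receptive flowers from -0.44 to -0.21 with TMM scaling, -0.22 with median-ratio scaling and -0.22 with the length trend removed, and in pollinated flowers from -0.08 to 0.11 with TMM and 0.047 with median-ratio scaling, which turned its sign. In the additive model, no filter on low counts gave 1 call between gall and seed flowers and 2 between stages, DESeq2 gave 1 and 2, and uniquely mapped reads gave 1 between stages, where the background was 0.377%. The cause of these shifts was not tested. The other alternatives run kept these counts within 1.5 times. Of 132 ratios of named transcripts, 47 moved beyond their counting interval with TMM, 51 with median-ratio scaling, 53 without the length trend, 5 with 1 added to each RPKM and 0 on uniquely mapped reads. Low counts in the receptive seed library, where 3 reads on 1 kb are an RPKM of 0.259, limit the scarce transcripts most.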

Other observations

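A glutaredoxin below the read minimum, Locus 8166, had a profile like those of the GSTs Locus 123 and Locus 878. Its RPKM was 2.41 in gall and 0.700 in seed flowers when receptive, and 18.7 and 4.90 once pollinated. All 3 transcripts had the order pollinated gall, pollinated seed, receptive gall, receptive seed. The ratio of pollinated to receptive gall flowers was 7.75 (6.11 to 9.95) for Locus 8166 and 25.7 (21.2 to 31.4) for Locus 878. Locus 8166 had 5 and Locus 878 had 8 reads in receptive seed flowers, so their levels there are poorly known.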
